A study of Mus musculus with 9 samples.

Results

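The collagen genes of mouse tibialis anterior muscle were followed from control through orchiectomised (ORX, testes removed) to orchiectomised and dihydrotestosterone-treated (ORX+DHT) males. Dihydrotestosterone is a potent androgen, and the muscle is a fast muscle at the front of the lower leg. Members were every gene whose symbol is Col, a number, the letter a and a number, which gave 44 of the 14971 protein-coding genes listed. They comprise 11 fibrillar chains, 9 network-forming chains, 9 FACIT chains (fibril-associated collagens with interrupted triple helices) and 15 chains of other kinds. All mice were C57BL/6J males sampled 4 weeks after treatment, with 3 libraries per group that the labels call biological replicates. The p-values therefore measure the spread between these libraries and nothing wider. The control columns are called sham in the tables. The age of the mice and the dose and route of DHT are not given in the sources used here. Whole muscle was measured, so all its cell types contribute, and in such bulk RNA fewer cells of a type and less RNA per cell cannot be told apart.

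Collagens are secreted proteins built from 3 α chains wound into a triple helix. Fibrillar collagens (types I, III, V and XI among them) pack into the fibres that give the muscle's connective tissue and its tendons their tensile strength, and FACIT collagens sit on the surface of those fibres. Type IV collagen forms the flat network of basement membranes around muscle fibres, capillaries and nerve, and type VI forms beaded filaments that link basement membrane to the surrounding matrix. Fibroblasts and tendon cells are the main makers of fibrillar collagen in a limb.

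Libraries held 1340209 to 1682235 reads over the listed genes, and 12398 to 13000 genes had a read. Control 1 stood apart from the other controls over all genes, while control 3 was the highest control for most fibrillar and FACIT genes below. Muscle fibre markers (Ckm, Acta1, Myh4, Tnnt3 and Pvalb) summed to 212107 to 268055 normalised counts in controls, 177862 to 186765 in ORX libraries and 183714 to 205189 in ORX+DHT libraries, and the satellite cell markers Pax7 and Myf5 together did not exceed 13.2. A normalised count is a library's read count for a gene divided by that library's scaling factor. Levels are given on 1 scale shared by all 9 libraries, in replicate order and as mean ± SD (n = 3).

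With DHT, 7 fibre-forming or fibril-associated collagen genes fell relative to ORX and the basement membrane pair rose. Of 23 collagen genes with a mean of at least 10 normalised counts, 9 passed the test in ORX+DHT against ORX (limma, Benjamini-Hochberg adjusted p under 0.05), where 4.08% of all 8770 genes tested passed. The 7 that fell were Col1a1, Col1a2, Col5a2 and Col11a1 (fibrillar) and Col12a1, Col14a1 and Col16a1 (FACIT), against 1.7% of all genes called lower. The 2 that rose were Col4a1 and Col4a2, against 2.38% of all genes called higher. The median log2 fold change of the 23 was -0.43, beside 0.0062 over all genes tested. ORX and ORX+DHT libraries did not overlap for 9 lower and 2 higher collagen genes, where 9.13% and 10.4% of all genes separated in those directions. Under quantile normalisation 7 fell (Col3a1 in place of Col14a1) and 0 rose, and a fit in which all 9 libraries shared 1 estimate of the spread called 5 (Col1a1, Col1a2, Col11a1, Col12a1 and Col16a1).

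After orchiectomy alone the collagen genes sat mostly above control, but none of the 22 tested passed in ORX against control (limma), where 0.0579% of all 8631 genes did. At an unadjusted p under 0.05, 12 were higher and 0 lower, beside 3.16% and 4.04% of all genes. On the reads, edgeR called 0 and DESeq2 called 2 (Col1a1 and Col16a1), both higher in ORX. The median log2 fold change was 0.64, beside -0.0077 over all genes, and 20 of the 22 were above 0. The muscle fibre markers lay the other way: their sum was lower in every ORX library than in any control, and all 5 were below 0 (median -0.42), with 0 called by limma and 0 at an unadjusted p under 0.05. Their part in the collagen values was not tested. By class the collagen medians were 0.83 for 9 fibrillar, 1.24 for 4 FACIT, 0.26 for 3 network and 0.35 for 6 other genes. The libraries did not overlap for 10 genes, all higher in ORX, where 6.28% of all genes separated that way and 8.06% the other way. The count depended on control 3: without it limma called 5 genes higher in ORX, with adjusted p of 0.00194 for Col12a1, 0.00375 for Col11a1, 0.0115 for Col1a1 and 0.0479 for both Col1a2 and Col5a2. Without control 1 it called Col16a1 alone, with an adjusted p of 0.0129, and with all 9 libraries in 1 fit it also called Col16a1 alone.

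ORX+DHT against control gave 0 calls among 22 collagen genes (limma), where 0.0349% of all 8595 genes passed. At an unadjusted p under 0.05, 2 were higher (Col4a1 and Col4a2) and 0 lower, beside 3.18% and 3.3% of all genes, and edgeR and DESeq2 called 0 each. By class the medians were 0.22 (fibrillar), -0.23 (FACIT), 0.65 (network) and 0.15 (other). The median log2 fold change of all 22 was 0.15, beside -0.0051 over all genes. The libraries did not overlap for 3 higher genes (Col4a1, Col4a2 and Col11a2) and 1 lower gene (Col22a1), beside 6.86% and 7.12% of all genes. Without control 1 limma called Col4a1 and Col4a2 higher, with adjusted p of 0.0414 and 0.0429. All 3 comparisons draw on the same 9 libraries, so they are not independent: each pair of them shares a group, and their values are set side by side below.

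**Figure D1:**
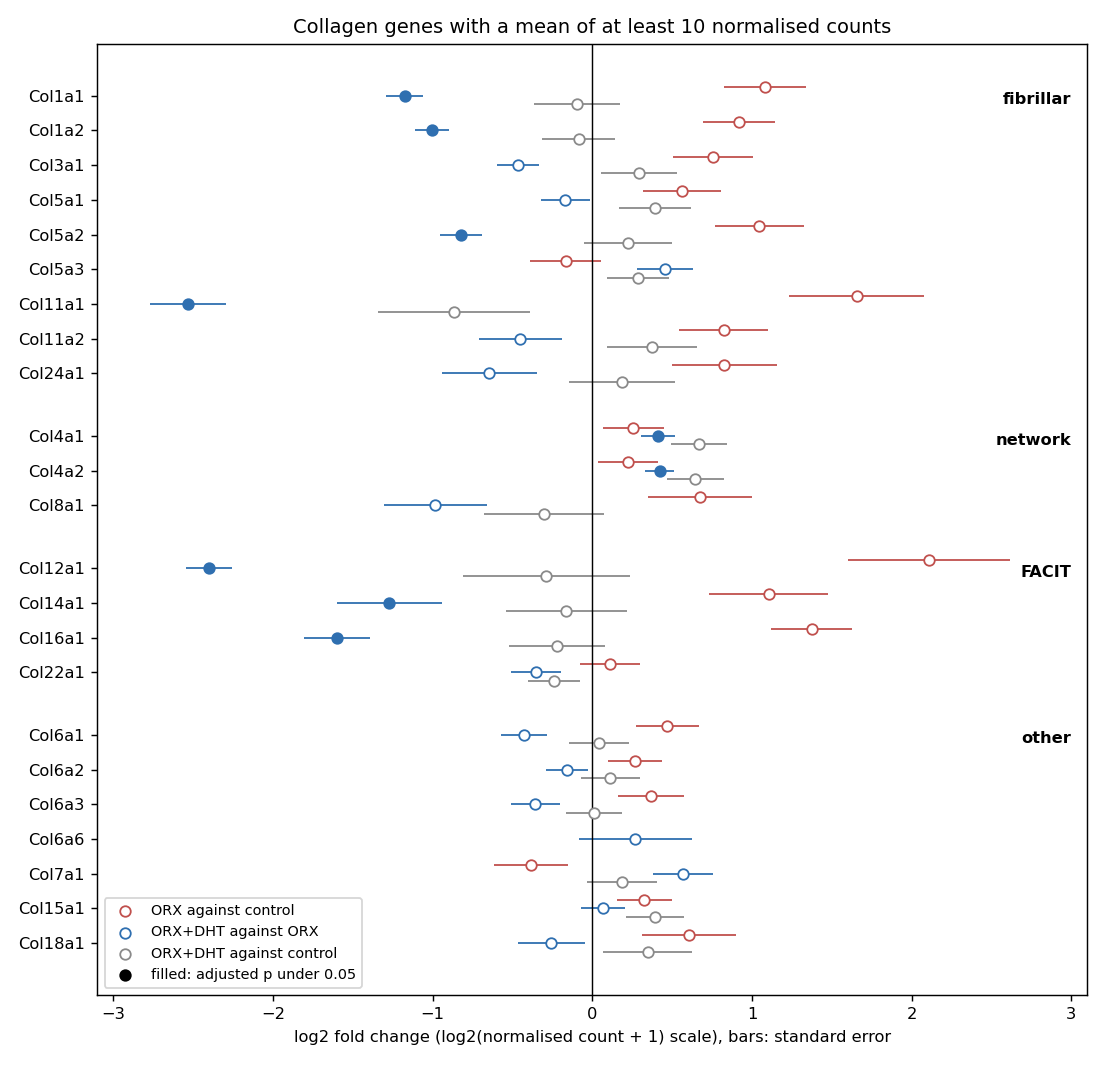
Log2 fold change of each collagen gene tested (x axis, log2 of normalised count + 1) by class, for the 3 comparisons (n = 3 a group); horizontal bars are limma standard errors, colours mark the comparisons and filled points passed at an adjusted p under 0.05. In ORX+DHT against ORX, 7 fibrillar and FACIT genes lie below 0 and Col4a1 and Col4a2 above 0 as filled points; the other comparisons have none.

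Type I collagen, the main fibre-forming collagen of tendon and muscle connective tissue, had the largest summed counts of the types in all control and ORX libraries and in ORX+DHT 3, while type IV was above it in ORX+DHT 1 and 2. Its α1 chain gene Col1a1 (ENSMUSG00000001506, chr11:94936224-94953042, plus strand, GRCm38) had 753, 522 and 1263 normalised counts in controls, 1606, 1557 and 1883 in ORX and 605, 752 and 894 in ORX+DHT. Every ORX library was above every library of the other groups, and control 3 was the control nearest to ORX. The means were 846 ± 379, 1682 ± 176 and 750.4 ± 145, and the ORX+DHT mean was 0.446 times that of ORX. This was a log2 fold change of -1.18 ± 0.11 (SE, adjusted p 2.89e-06 by limma) in ORX+DHT against ORX and 1.08 ± 0.26 (SE, adjusted p 0.294 by limma) in ORX against control. Between ORX+DHT and control it was -0.10 with a 95% interval of -0.69 to 0.50, which includes 0.

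Col1a2 (ENSMUSG00000029661, chr6:4504814-4541544, plus strand), which encodes the α2 chain that pairs with 2 α1 chains in the type I helix, had 844, 584 and 1197 normalised counts in controls. It had 1543, 1430.3 and 1809.9 in ORX and 682, 789 and 919 in ORX+DHT. Again all ORX libraries were the highest, and the control and ORX+DHT ranges overlapped. Its log2 fold change was -1.0 ± 0.11 (SE, adjusted p 7.02e-06 by limma) in ORX+DHT against ORX, 0.92 ± 0.22 (SE, adjusted p 0.318 by limma) in ORX against control and -0.085 (95% interval -0.59 to 0.42) in ORX+DHT against control. Per kilobase of transcript, Col1a2 was the most abundant collagen gene in control and ORX, at 164 and 298 normalised counts per kilobase, against 143 and 284 for Col1a1. In ORX+DHT it was at 149 per kilobase and Col3a1 at 158. Mean ± SD ranges of Col1a1, Col1a2 and Col3a1 overlapped between neighbours in each group, so the means alone do not set their order. Within each of the 9 libraries Col1a1 was below Col1a2 per length, at 0.80 to 0.981 times.

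**Figure D2:**
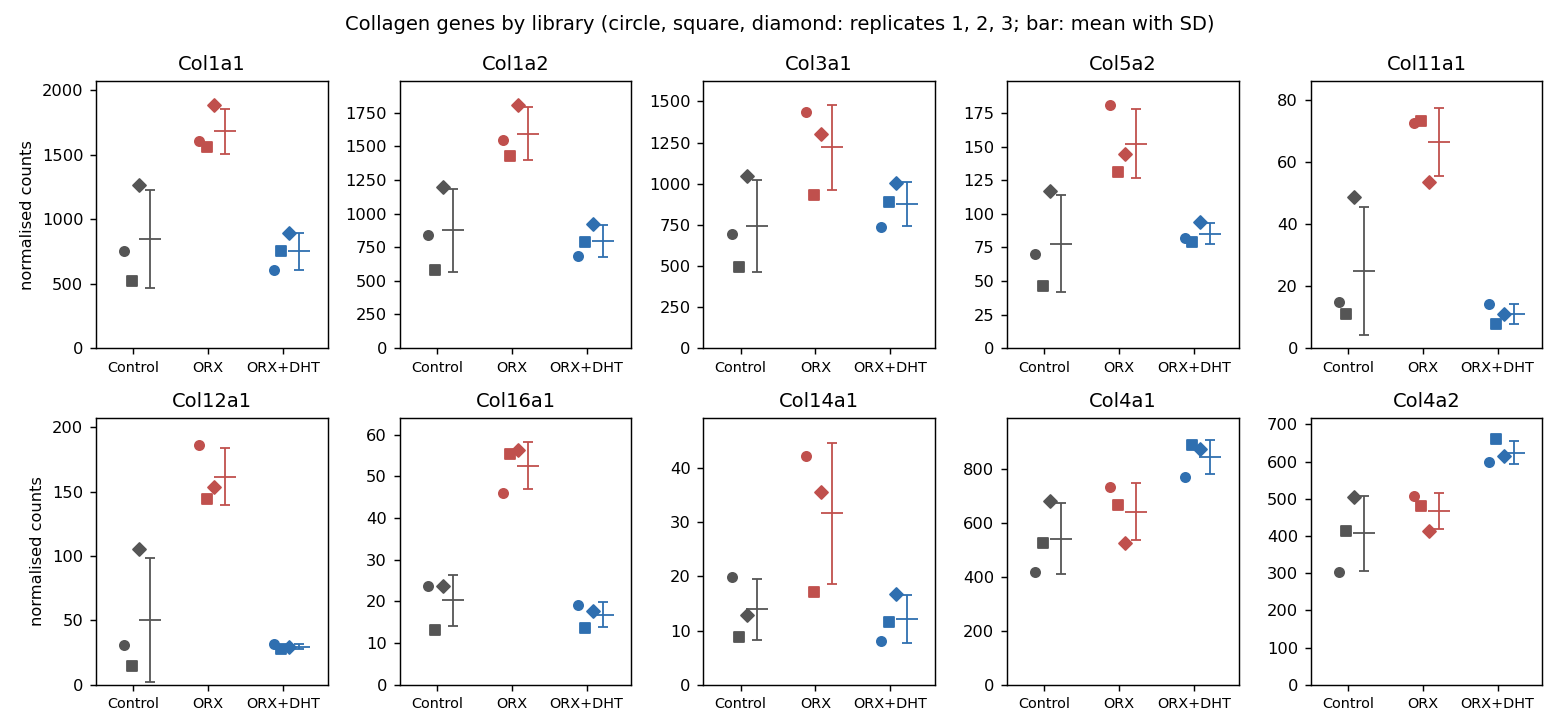
Normalised counts (y axis, linear and starting at 0) of the 9 collagen genes that passed in ORX+DHT against ORX and of Col3a1, by group; each point is 1 library and the bar shows the mean with SD (n = 3). ORX libraries lie above ORX+DHT libraries for every fibrillar and FACIT gene shown except Col3a1, for which 1 ORX library lies within the ORX+DHT range; ORX+DHT libraries are highest for Col4a1 and Col4a2.

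Col3a1 (ENSMUSG00000026043, chr1:45311538-45349706, plus strand) encodes type III collagen, which forms thin fibres together with type I. It had 693, 494 and 1048 normalised counts in controls, 1433, 931 and 1300.3 in ORX and 739, 888 and 1005 in ORX+DHT. ORX 2 lay inside the ORX+DHT range and control 3 lay above that range and inside the ORX range. Its log2 fold change was -0.46 ± 0.13 (SE, adjusted p 0.0597 by limma) in ORX+DHT against ORX, short of the threshold, and in ORX against control it was 0.76 ± 0.25 (SE, adjusted p 0.614 by limma). Leaving out ORX 2 took the limma adjusted p of the former to 0.00373, and Col6a1 also passed there. Col3a1 passed as well with edgeR (adjusted p 0.0419). Per length, Col1a1 was 1.05, 1.57 and 1.36 times Col3a1 in ORX libraries and 0.768, 0.794 and 0.835 times in ORX+DHT libraries. Controls had ratios of 1.02, 0.991 and 1.13. Every ORX+DHT library thus held less Col1a1 than Col3a1 per length, whereas all ORX libraries held more.

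Types V and XI are the minor fibrillar collagens that sit inside type I fibrils and set their width. Col5a2 (ENSMUSG00000026042, chr1:45374321-45503282, minus strand), a chain of type V, had 69.9, 46.4 and 117 normalised counts in controls, 181, 131 and 145 in ORX and 82.1, 79.3 and 93.9 in ORX+DHT. Its log2 fold change was -0.82 ± 0.13 (SE, adjusted p 0.000881 by limma) in ORX+DHT against ORX, 1.05 ± 0.28 (SE, adjusted p 0.399 by limma) in ORX against control and 0.22 (adjusted p 0.858 by limma) in ORX+DHT against control. Col5a2 lies next to Col3a1 on chromosome 1, 24614 bases away on the opposite strand.

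The other type V chains did not pass. Col5a1 had 87.4, 66.3 and 126 normalised counts in controls, 174, 125 and 110.0 in ORX and 107, 113 and 137 in ORX+DHT, with a log2 fold change of -0.17 ± 0.15 (SE, adjusted p 0.689 by limma) for ORX+DHT against ORX. Col5a3 had 82.4, 91.8 and 117 in controls, 116, 78.5 and 68.7 in ORX and 110.5, 145 and 101 in ORX+DHT, with a log2 fold change of 0.45 ± 0.18 (SE, adjusted p 0.211 by limma) for the same comparison. Without ORX 1, Col5a3 passed as higher (limma adjusted p 0.0261). Both genes overlapped between ORX and ORX+DHT libraries, and Col5a3 was the only fibrillar gene tested that had a positive value there. Per length, Col5a1 was 0.985, 1.13 and 0.848 times Col5a2 in controls, 0.758, 0.747 and 0.599 times in ORX and 1.03, 1.12 and 1.15 times in ORX+DHT, so the chain balance was lowest in the ORX libraries.

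Col11a1 (ENSMUSG00000027966, chr3:114030540-114220718, plus strand) encodes the type XI chain that can join type V chains in mixed fibrils. Its controls read 15, 11.1 and 48.7 normalised counts, ORX 72.6, 73.3 and 53.8 and ORX+DHT 14.2, 7.73 and 10.9. Control 3 was close to the lowest ORX library, while the other controls lay within or just above the ORX+DHT range. ORX+DHT differed from ORX by -2.53 ± 0.24 (SE, adjusted p 2.31e-06 by limma) on the log2 scale. ORX against control gave 1.66 ± 0.42 (SE, adjusted p 0.333 by limma). Against control, ORX+DHT was at -0.87 with a 95% interval of -1.91 to 0.18. Set against Col5a1 per length, Col11a1 was 0.458, 0.646 and 0.536 times as abundant in ORX and 0.145, 0.075 and 0.0868 times in ORX+DHT, with 0.188, 0.183 and 0.423 in controls. Its partner Col11a2 had 12.5, 11.1 and 12.9 normalised counts in controls, 16.7, 27.3 and 24 in ORX and 13.2, 17.4 and 17.8 in ORX+DHT. Its log2 fold change in ORX+DHT against ORX was -0.45 ± 0.26 (SE, adjusted p 0.462 by limma). Col24a1, a fibrillar collagen known from developing bone, ranged from 7.49 to 12.2 in controls, 13.2 to 25.5 in ORX libraries and 10.1 to 12.8 in ORX+DHT libraries and was not called in any comparison.

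The promoters of Col1a2 and Col11a1 are shown. They are the fibrillar genes that fell and had a matched RefSeq window (250 bases before to 50 after the start site, GRCm38.p6). Capitals mark the CCAAT box read on either strand (CCAAT or ATTGG), a promoter element. For Col1a2, RefSeq places the start site downstream of the GENCODE gene start given above, so this window lies wholly inside the GENCODE gene.
Col1a2, chr6:4505368-4505667, plus strand: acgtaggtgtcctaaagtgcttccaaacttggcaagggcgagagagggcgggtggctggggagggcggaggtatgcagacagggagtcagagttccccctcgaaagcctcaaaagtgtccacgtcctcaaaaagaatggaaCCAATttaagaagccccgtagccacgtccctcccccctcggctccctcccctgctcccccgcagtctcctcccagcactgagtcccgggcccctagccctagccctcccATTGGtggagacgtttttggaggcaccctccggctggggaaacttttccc
Col11a1, chr3:114030290-114030589, plus strand: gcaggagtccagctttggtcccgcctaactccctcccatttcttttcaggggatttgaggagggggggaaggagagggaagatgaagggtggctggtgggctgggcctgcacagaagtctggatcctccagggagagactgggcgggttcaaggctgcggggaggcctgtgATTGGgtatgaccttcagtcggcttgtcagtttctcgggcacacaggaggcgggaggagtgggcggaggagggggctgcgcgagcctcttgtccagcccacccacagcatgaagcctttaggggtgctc
A window was matched for 35 of the 44 collagen genes, and 13 of these (37.1%) held CCAAT on either strand, where 41.1% of 27025 gene windows did. The GC box GGGCGG was in 22 of 35 (62.9%), beside 38.2% of all windows, and TATAAA in 5 of 35, beside 15.7%. The androgen receptor half-site AGAACA, also searched on both strands, was in 2 of 35 (5.71%), beside 21.3%. Col1a2, Col11a1 and Col16a1 each held CCAAT and GGGCGG and neither TATAAA nor AGAACA in this window. These matches describe the letters of the windows and locate no bound factor.

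FACIT collagens had the largest median difference of the 4 classes between ORX+DHT and ORX. Of 4 tested, 3 fell and none rose (limma), with a class median log2 fold change of -1.43, while the 9 fibrillar genes tested had 4 falls and a median of -0.64. Col12a1 (ENSMUSG00000032332, chr9:79598991-79718831, minus strand), which encodes the type XII chain found on type I fibrils of tendon and fascia, had 187, 144 and 154 normalised counts in ORX and 31.4, 28 and 29.6 in ORX+DHT. Controls ranged the widest, at 31.2, 14.4 and 105, with control 3 nearest to ORX and control 2 below every other library. The log2 fold change was -2.40 ± 0.14 (SE, adjusted p 1.01e-08 by limma) in ORX+DHT against ORX. In ORX against control it was 2.11 ± 0.51 (SE, adjusted p 0.314 by limma) with a 95% interval of 0.99 to 3.22. ORX+DHT against control was -0.29 with an interval of -1.44 to 0.86, and its sign turned without control 3 (0.46). Within ORX+DHT the libraries differed little, with an SD of 1.69 on a mean of 29.7.

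Col16a1 (ENSMUSG00000040690, chr4:130047840-130099283, plus strand), a FACIT chain found near basement membranes and on thin fibrils, had 23.7, 13.3 and 23.8 normalised counts in controls, 46.1, 55.4 and 56.2 in ORX and 19.3, 13.5 and 17.8 in ORX+DHT. All ORX libraries lay above all controls and all ORX+DHT libraries. On the log2 scale Col16a1 differed by -1.60 ± 0.21 (SE, adjusted p 7.44e-05 by limma) in ORX+DHT against ORX, 1.37 ± 0.26 (SE, adjusted p 0.102 by limma) in ORX against control and -0.22 (adjusted p 0.871 by limma) in ORX+DHT against control.

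Col14a1 (ENSMUSG00000022371, chr15:55307750-55520803, plus strand), which encodes the type XIV chain of tendon and muscle connective tissue, had 19.98, 8.85 and 12.9 normalised counts in controls, 42.2, 17.1 and 35.6 in ORX and 8.11, 11.6 and 16.8 in ORX+DHT. ORX 2 was only just above the highest ORX+DHT library. On the log2 scale ORX+DHT differed from ORX by -1.27 ± 0.33 (SE, adjusted p 0.0345 by limma), and the call was lost without ORX 1, ORX 3, ORX+DHT 1 or ORX+DHT 2, with adjusted p of 0.181, 0.122, 0.163 and 0.089. It was also lost with DESeq2 (0.0772) and under quantile normalisation (0.0503).

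Col22a1 (ENSMUSG00000079022, chr15:71795795-72034227, minus strand), the FACIT chain of the junction between muscle fibre and tendon, was the most abundant FACIT gene per length in controls (8.09 normalised counts per kilobase, against 4.37 for Col12a1). In ORX the order turned, with 8.87 for Col22a1 and 14 for Col12a1. Its libraries read 72.4, 71.9 and 69.5 normalised counts in controls, 85.4, 87.8 and 61.2 in ORX and 56.7, 59.9 and 64.2 in ORX+DHT. The log2 fold change was -0.35 ± 0.16 (SE, adjusted p 0.308 by limma) in ORX+DHT against ORX and 0.11 ± 0.19 (SE, adjusted p 0.911 by limma) in ORX against control, so this member of the class did not pass in either. All ORX+DHT libraries were below all controls, with a log2 fold change of -0.24 ± 0.16 (SE, adjusted p 0.76 by limma). The 5 remaining FACIT genes (Col9a1, Col9a2, Col9a3, Col19a1 and Col20a1), known mainly from cartilage and other tissues, were too low to test.

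Both common chains of type IV collagen rose in ORX+DHT against ORX. Col4a1 (ENSMUSG00000031502, chr8:11198423-11312826, minus strand), the α1 chain of the common basement membrane heterotrimer, had 418, 526 and 681 normalised counts in controls, 732, 668 and 525 in ORX and 772, 888 and 876 in ORX+DHT. All ORX+DHT libraries were above the other 6, and control and ORX overlapped. The log2 fold change was 0.41 ± 0.11 (SE, adjusted p 0.0377 by limma) in ORX+DHT against ORX, 0.26 ± 0.19 (SE, adjusted p 0.789 by limma) in ORX against control and 0.67 ± 0.18 (SE, adjusted p 0.595 by limma) in ORX+DHT against control, the last with a 95% interval of 0.28 to 1.05. The first of these calls was lost under quantile normalisation (0.116), with DESeq2 (0.0691) and without ORX 2, ORX 3 or any 1 ORX+DHT library, with adjusted p of 0.0538 to 0.159.

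Its partner Col4a2 (ENSMUSG00000031503, chr8:11312805-11449287, plus strand) had 303, 412 and 505 normalised counts in controls, 507, 481 and 414 in ORX and 599, 659 and 614 in ORX+DHT. The ordering of the groups was that of Col4a1, with control 1 the lowest library for both. The log2 fold change was 0.42 ± 0.091 (SE, adjusted p 0.0103 by limma) in ORX+DHT against ORX, 0.22 ± 0.19 (SE, adjusted p 0.804 by limma) in ORX against control and 0.65 ± 0.18 (SE, adjusted p 0.651 by limma) in ORX+DHT against control (95% interval 0.25 to 1.04). The call in ORX+DHT against ORX was lost under quantile normalisation (0.0526) and without ORX+DHT 2 (0.0636). Per length Col4a1 was 1.24 to 1.41 times Col4a2 across the 9 libraries. In the heterotrimer the α1 chains outnumber α2. In ORX+DHT the mean of Col4a1 per kilobase, 128 normalised counts, was level with that of Col1a1 at 127, whereas in ORX they were 97 and 284.

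The 2 genes stand head to head on chromosome 8: their annotated start sites are 21 bases apart, the annotations overlap by 22 bases, and the RefSeq windows share 78 bases. Both windows are printed 5′ to 3′ on each gene's own strand to show this arrangement, with capitals for the CCAAT box on either strand (CCAAT or ATTGG).
Col4a1, chr8:11312777-11313076, minus strand: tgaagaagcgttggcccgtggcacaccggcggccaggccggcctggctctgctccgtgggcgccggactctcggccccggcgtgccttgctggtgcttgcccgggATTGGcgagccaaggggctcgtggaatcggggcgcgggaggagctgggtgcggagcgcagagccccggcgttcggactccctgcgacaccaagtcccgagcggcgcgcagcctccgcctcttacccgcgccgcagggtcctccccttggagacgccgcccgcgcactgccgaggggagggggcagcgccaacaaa
Col4a2, chr8:11312555-11312854, plus strand: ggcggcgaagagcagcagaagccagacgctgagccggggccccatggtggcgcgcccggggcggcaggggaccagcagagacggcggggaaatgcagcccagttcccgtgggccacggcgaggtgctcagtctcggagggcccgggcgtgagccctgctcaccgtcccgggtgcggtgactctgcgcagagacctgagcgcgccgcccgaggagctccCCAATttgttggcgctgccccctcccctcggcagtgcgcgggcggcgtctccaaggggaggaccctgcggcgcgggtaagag
Each window held CCAAT and GGGCGG and neither TATAAA nor AGAACA, as did those of the 3 genes that fell and had a window. Reads in the overlap could be assigned to either gene, and whether counting used strand is not given in the sources used here.

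The other network chains were low. Col8a1, a short-chain collagen of vessel walls, ranged from 8.85 to 15.9 normalised counts in controls, 13.6 to 24.8 in ORX libraries and 6.08 to 11.9 in ORX+DHT libraries, without overlap between the last 2 groups, and was not called. Col8a2 was below the minimum mean of 10, with 1.25, 1.11 and 2.98 normalised counts in controls, 11.8, 6.82 and 13.2 in ORX and 2.03, 1.93 and 1.98 in ORX+DHT. It was the collagen gene added to the calls (lower in ORX+DHT) when no filter was applied, and it is named after its values were seen. Col4a3 to Col4a6, which build the specialised basement membranes of kidney and other organs, and Col10a1 of hypertrophic cartilage were not tested.

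Among the 15 collagens of other kinds, 7 were tested in ORX+DHT against ORX and none was called (limma), with 1 higher and 2 lower at an unadjusted p under 0.05 (7.91% and 6.34% of all genes) and a median log2 fold change of -0.16. Col6a2, a chain of the type VI beaded filaments and the most abundant of these genes per length over the 9 libraries, had 139, 107 and 145 normalised counts in controls, 175, 146 and 149 in ORX and 124, 173 and 127 in ORX+DHT. Its log2 fold change was -0.16 ± 0.13 (SE, adjusted p 0.667 by limma) in ORX+DHT against ORX and 0.27 ± 0.17 (SE, adjusted p 0.75 by limma) in ORX against control. ORX and ORX+DHT overlapped, and the lowest ORX library lay just above the highest control. Col6a1 ranged from 107 to 156, 139 to 203 and 110.5 to 152 in control, ORX and ORX+DHT, and Col6a3 from 99.9 to 142, 119 to 195 and 104 to 127.

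Col7a1, the anchoring fibril chain, ranged from 40.7 to 64.1, 31.4 to 46.9 and 46.6 to 66.2 normalised counts in control, ORX and ORX+DHT. Col15a1, a basement membrane chain of muscle and capillaries, ranged from 85.1 to 111, 115 to 142 and 109 to 158. Col18a1, which carries endostatin at its end, ranged from 14.9 to 31.2, 27.3 to 42.2 and 26.7 to 27.4. In each of these 3 genes the ORX and ORX+DHT libraries overlapped, unlike those of Col4a1 and Col4a2. For Col7a1 the overlap was narrow, with ORX 2 at 46.9 and ORX+DHT 1 at 46.6. The log2 fold change of Col7a1 in ORX+DHT against ORX was 0.57 ± 0.19 (SE, adjusted p 0.121 by limma). This was larger than those of Col4a1 (0.41) and Col4a2 (0.42) but was not called. Col6a6 passed the filter in ORX+DHT against ORX alone and was not called.

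In all, 21 collagen genes were below the minimum mean of 10 and were tested in no comparison with that filter. They had at most 16 reads in any library, and Col10a1 had a single read in 1 ORX+DHT library. The filter uses the mean over both groups, so a gene high in 1 group can pass through that group: Col8a1 passed with an ORX+DHT mean of 9.2 and Col24a1 with a control mean of 9.86. For genes as low as Col11a1, Col14a1 or Col16a1 the counts themselves limit the precision at this depth.

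The shares of the collagen classes separated ORX from ORX+DHT libraries. All collagen genes together had 4024, 3434 and 6022 normalised counts in controls, 7647, 6492 and 7421 in ORX and 4433, 5214 and 5506 in ORX+DHT, with every ORX library the highest. Type I chains took 32.2 to 40.9% of collagen counts in controls, 41.2 to 49.8% in ORX libraries and 29 to 32.9% in ORX+DHT libraries. Type IV chains took 18.1 to 27.6%, 12.8 to 17.8% and 27.4 to 31.3%. ORX and ORX+DHT libraries did not overlap in either share. Controls lay below ORX in the type I share and above it in the type IV share. Only control 2, at 32.2% and 27.6%, lay within the ORX+DHT ranges. Controls 1 and 3 lay nearer to ORX, at 39.7 and 40.9% for type I and 18.1 and 19.9% for type IV. In ORX+DHT 1 and 2 the type IV share exceeded the type I share, as in no other library. Per length, Col1a1 was 2.45, 2.6 and 4 times Col4a1 in ORX and 0.874, 0.944 and 1.14 times in ORX+DHT, beside 2.01, 1.11 and 2.07 in controls. The smallest p that an exact permutation test of 3 against 3 libraries can give is 0.1, so no test is given for these sums and ratios.

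**Figure D3:**
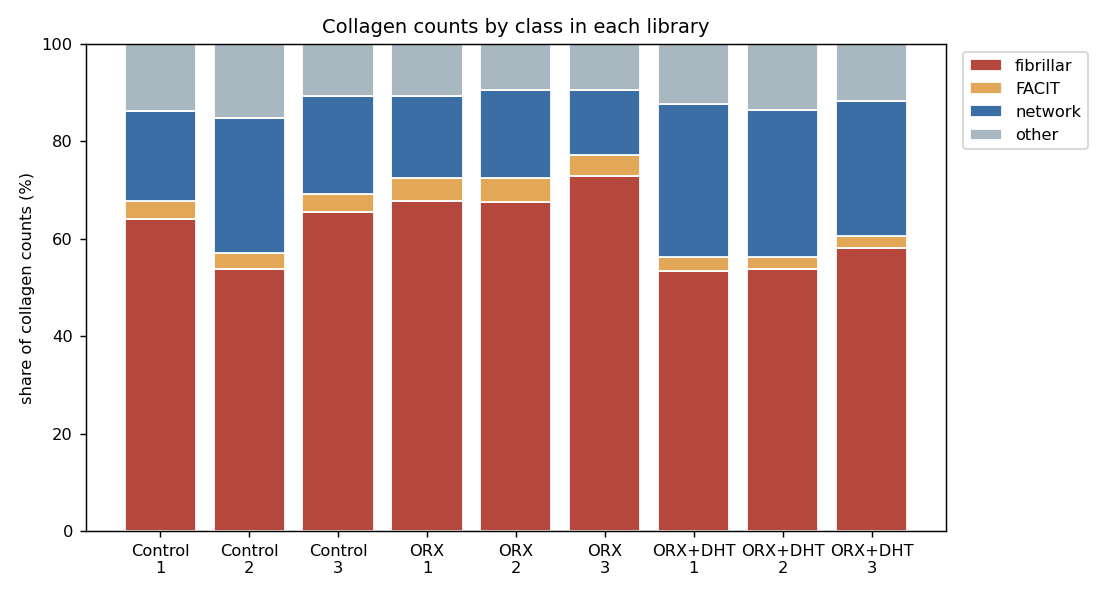
Share of collagen counts (y axis, percent) taken by fibrillar, FACIT, network and other collagen genes in each of the 9 libraries. The fibrillar share is 67.5 to 73% in ORX libraries and 53.3 to 58.1% in ORX+DHT libraries, and the network share 13.3 to 18.1% and 27.6 to 31.5%.

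Genes that make and process collagen were read as a list of 33 (prolyl and lysyl hydroxylases, chaperones, propeptide proteases, lysyl oxidases and secretion factors), of which 23 were tested in ORX+DHT against ORX. Mia3, which loads the bulky procollagen into transport carriers at the endoplasmic reticulum, was called higher and none was called lower, which is near the 4.08% of all genes called. Mia3 had 221, 327 and 289 normalised counts in controls, 242, 213 and 206 in ORX and 299.9, 303 and 289.5 in ORX+DHT, with a log2 fold change of 0.43 ± 0.10 (SE, adjusted p 0.0127 by limma). All ORX libraries lay below all ORX+DHT libraries, and controls spanned both. The call was lost without ORX 2, ORX+DHT 1 or ORX+DHT 2 (limma adjusted p 0.068, 0.066 and 0.056), with DESeq2 (0.0589) and with all 9 libraries in 1 fit (0.268). Of the 23, 19 were below 0, with a median log2 fold change of -0.21, beside 0.0062 for all genes. At an unadjusted p under 0.05, 3 were lower and 1 higher, beside 6.34% and 7.91% of all genes. In ORX against control none of 22 was called (limma), with 3 higher and 0 lower at an unadjusted p under 0.05 (3.16% and 4.04% of all genes) and a median of 0.27. None of 20 was called in ORX+DHT against control, with 0 at an unadjusted p under 0.05.

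Of 9 collagen receptors (integrin subunits, discoidin domain receptors and others), none was called in any comparison by limma. Of these, 5 were tested in ORX+DHT against ORX and 1 was lower at an unadjusted p under 0.05 (6.34% of all genes), with 0 of 6 in ORX against control and 0 of 5 in ORX+DHT against control. Itga11, a fibroblast subunit of the receptor for fibrillar collagen, was too low to test in ORX+DHT against ORX. Itga11 had 9.99, 8.85 and 6.95 normalised counts in controls, 12.8, 13.6 and 14.9 in ORX and 3.04, 2.9 and 1.98 in ORX+DHT. Every ORX+DHT library was thus below every control as well as every ORX library. Itga11 is named after its values were seen.

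Markers of the cells that make fibrillar collagen differed between ORX and ORX+DHT in part. The 6 fibroblast markers (Pdgfra, Dcn, Dpt, Pi16, Mfap5 and Lum) summed to 400.2 to 652 normalised counts in controls, 466 to 805 in ORX libraries and 421 to 597 in ORX+DHT libraries, so the groups overlapped. Of the 6, 1 was called in ORX+DHT against ORX, beside 1.7% of all genes called lower. This was Lum, which encodes the fibril-binding proteoglycan lumican. Lum had 86.2, 27.6 and 75.5 normalised counts in controls, 119, 92.1 and 103 in ORX and 29.4, 37.7 and 22.7 in ORX+DHT, with a log2 fold change of -1.79 ± 0.18 (SE, adjusted p 4.81e-06 by limma). The most abundant, Dcn, had 376, 288 and 529 in ORX and 308, 374 and 448 in ORX+DHT and was not called.

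Tendon cell markers (Scx, Tnmd, Mkx, Fmod and Thbs4) summed to 329 to 429.5 normalised counts in controls, 446 to 733 in ORX libraries and 308 to 377 in ORX+DHT libraries, without overlap between the last 2. Of 3 tested in ORX+DHT against ORX, Fmod was called lower, beside 1.7% of all genes. It had 99.9, 95.1 and 125 in controls, 154, 249 and 386 in ORX and 89.2, 88 and 128 in ORX+DHT. This was a log2 fold change of -1.28 ± 0.23 (SE, adjusted p 0.00205 by limma), and the DESeq2 adjusted p was 0.0531. The defining tendon factors Scx and Mkx were at most 12.5 in any library. Bone and cartilage markers (Sp7, Bglap, Ibsp, Alpl, Runx2, Acan, Sox9 and Comp) summed to 40.9 to 118, 136 to 179 and 52.7 to 63.2, also without overlap between ORX and ORX+DHT. Of 3 tested there, Ibsp, which encodes bone sialoprotein, was called lower, beside 1.7% of all genes. It had 4.99, 0 and 33.8 in controls, 55, 48.6 and 62.9 in ORX and 2.03, 0.967 and 5.93 in ORX+DHT. This was a log2 fold change of -4.05 ± 0.38 (SE, adjusted p 2.31e-06 by limma). Ibsp and Comp passed the filter there only through the ORX group, with ORX+DHT means of 2.97 and 6.84. Sp7 and Bglap were at or near 0, with at most 1.99 normalised counts. Runx2 had 6.87, 4.26 and 4.96 in ORX and at most 1.11 in any control or ORX+DHT library. Acan had 0, 0 and 12.9 in controls, 9.82, 8.53 and 3.31 in ORX and 0, 0 and 1.98 in ORX+DHT. Sp7, Bglap and Sox9 overlapped between ORX and ORX+DHT, and all of these genes were too low to test. Runx2 and Acan are named after their values were seen. The summed tendon and bone markers were thus highest where the fibrillar and FACIT genes were, but single markers differed. Scx had its highest mean in controls (6.63, against 5.5 in ORX), and Tnmd, Thbs4 and Alpl overlapped between control and ORX libraries. The part of these markers in the collagen differences was not tested.

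For cells of the capillary wall, the 5 endothelial markers (Pecam1, Cdh5, Kdr, Vwf and Emcn) summed to 592 to 783 normalised counts in controls, 609.6 to 779 in ORX libraries and 794 to 883 in ORX+DHT libraries. The 4 mural cell markers (Rgs5, Pdgfrb, Acta2 and Myh11) summed to 1000.1 to 1114, 1104 to 1182 and 1279 to 1298. No marker of either list was called in ORX+DHT against ORX (limma), while 2 endothelial and 1 mural marker were higher at an unadjusted p under 0.05, beside 7.91% of all genes. Both sums were highest in ORX+DHT, as Col4a1 and Col4a2 were, and their part in that difference was not tested. Macrophage markers (Cd68, Adgre1, Csf1r and Mrc1) summed to 26.5 to 38.7 in controls, 40.1 to 57.9 in ORX libraries and 37.7 to 46.4 in ORX+DHT libraries. Adipocyte markers (Adipoq, Plin1, Cfd and Lep) summed to 6.63 to 32.5, 30.7 to 48.8 and 14.2 to 51.4 in the same order. Of the 5 muscle fibre markers, 1 was called higher in ORX+DHT than in ORX, beside 2.38% of all genes. This was Acta1, the skeletal α-actin gene, by 0.47 ± 0.089 (SE, adjusted p 0.00357 by limma) on the log2 scale. Its limma adjusted p was 0.0524 without ORX 2 and 0.42 with all 9 libraries in 1 fit.

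**Figure D4:**
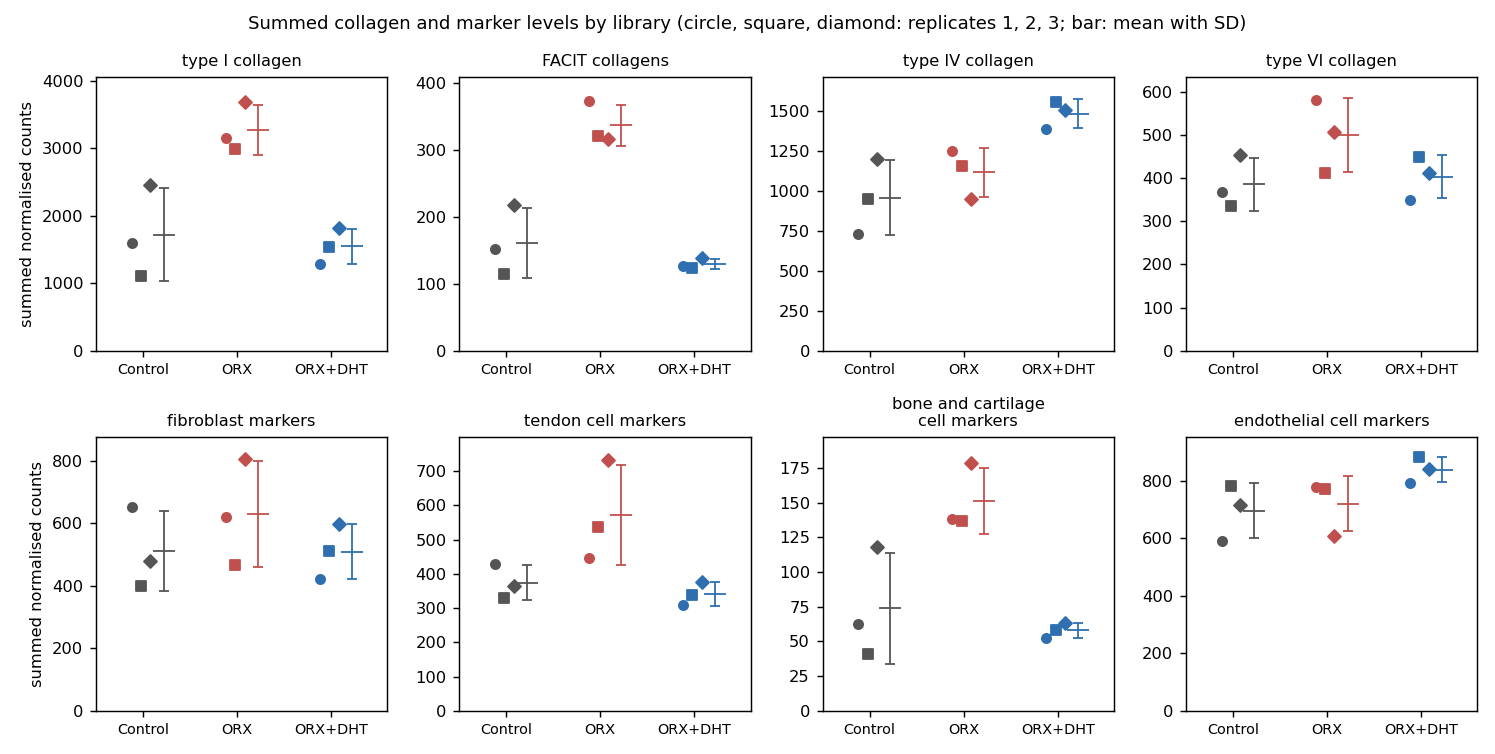
Summed normalised counts (y axis, linear and starting at 0) of type I, FACIT, type IV and type VI collagen genes and of fibroblast, tendon cell, bone and cartilage cell and endothelial cell markers, by group; each point is 1 library and the bar shows the mean with SD (n = 3). The tendon cell and the bone and cartilage cell sums are higher in every ORX library than in any ORX+DHT library, while fibroblast marker sums overlap.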

How the data were processed

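The authors deposited 2 tables of normalised counts (a signal: reads over a factor per library), 1 for control with ORX and 1 for ORX with ORX+DHT. Libraries were made from polyA RNA with a directional kit, per the labels' protocols. The submitters' processing notes name GRCm38, Trim Galore 0.6.7, HISAT2 2.2.1, featureCounts 2.0.1 and DESeq2 1.36.0 without giving their roles; the annotation and the strand setting are not given in the sources used here. All values were whole multiples of 1 step per column (tolerance 1e-06), so reads were recovered by division. The ORX reads were identical in both tables. No column was left unmapped (0).

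The first pair and the second pair of groups were tested within their own tables, and ORX+DHT against control after rescaling the 14300 shared genes of all 9 libraries by median-of-ratios factors, the scale of the printed levels. Each fit used limma 3.58.1 (R 4.3.3, lmFit and eBayes with a trend) on log2(value + 1). Genes needed a mean of at least 10 over the libraries compared, with Benjamini-Hochberg adjustment over all genes tested and calls at 0.05. Fold changes are on that log2 scale, which understates low genes. The fits were tested on simulated data. Alternatives were pseudocounts of 0.1 and 10, no filter, a mean of at least 50, TMM scaling, quantile normalisation, a block for the replicate number, a joint fit of all 9 libraries, each library left out in turn, and edgeR 4.0.16 and DESeq2 1.42.0 on the recovered reads.

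Values and tests are printed for collagen genes called in any comparison and the most abundant of each class per length. They are also printed for the partner chains that were tested and for Col3a1. The partner chains Col4a3 to Col4a6 were too low to test and their values are not printed. Pathway genes and markers are named with tests where called. Of the marker lists, 1 is not reported here. The members and lists were chosen with earlier results of these data known. Gene positions and transcript lengths (the transcript with the longest coding sequence) come from GENCODE M21 on GRCm38, and promoter windows from RefSeq.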

Additional observations from a re-analysis of the deposited data

How the results depend on the processing

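Of 50 gene results with a test, 43 kept their sign in all alternatives in which they were tested, and none of the called results reversed. Col1a1, Col1a2, Col11a1, Col12a1 and Col16a1 were called lower in ORX+DHT than in ORX in every alternative in which they were tested, while Col5a2, Col14a1, Col4a1 and Col4a2 each lost the call in at least 1. The number of collagen genes called in ORX against control was 1 with all 9 libraries in 1 fit, 2 with DESeq2 and 0 to 5 with each library left out. In ORX+DHT against ORX it was 5 with all 9 libraries in 1 fit, where Col5a2 had an adjusted p of 0.199, Col14a1 0.173, Col4a1 0.471 and Col4a2 0.388, and it was 6 to 10 with each library left out. In ORX+DHT against control it was 0 to 2 with each library left out. The median log2 fold change of ORX+DHT against control was -0.016 to 0.22 with each library left out, lowest and reversed without control 2. With each library left out, Col5a1 ranged from -0.31 to 0.019 in ORX+DHT against ORX, above 0 without ORX 1. In ORX+DHT against control the range was -0.93 to 0.46 for Col12a1 (above 0 without control 3), -0.40 to 0.24 for Col1a1 and -0.35 to 0.17 for Col1a2 (both above 0 without control 3 or ORX+DHT 1) and -0.43 to 0.12 for Col14a1 (above 0 without control 1 or ORX+DHT 1). It was -0.093 to 0.57 for Col5a2 (below 0 without control 2) and -0.041 to 0.20 for Col6a2 (below 0 without control 2 or ORX+DHT 2). Under quantile normalisation Col1a2 was 0.0074. The causes were not tested. Correlations of same-numbered libraries' deviations were -0.16 to 0.15, so the numbers were not taken as pairs; with the replicate block 0, 11 and 0 collagen genes were called in the 3 comparisons. At 1340209 to 1682235 reads per library, the 21 untested genes were below the minimum mean and were compared only in the fits with no filter.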
